A study of Mus musculus with 4 samples.

Results

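Many genes can be transcribed from more than 1 promoter. A promoter that lies inside the gene, downstream of the first one, gives transcripts with another first exon, and often a protein with another N-terminus or the same protein under another control. Active promoters sit in open chromatin, where nucleosomes are displaced around the start site and transcription factors are bound, and DNase I cuts such DNA readily. CpG-rich promoters (CpG islands) are open in most cell types, whereas many CpG-poor promoters are open only in the cell types that use them.

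The regions described here are the annotated start sites of protein-coding transcripts on chromosomes 1 to 19 (GENCODE M21) that lie over 5 kb downstream of the most upstream start site of the same gene and over 1 kb from the start sites of other genes. Of 52086 protein-coding start sites in 20698 genes, 9668 lay that far downstream, 656 of these were near another gene's start site, and 9012 start sites in 4625 genes remained. They make up 17.3% of the start sites, and 22.3% of the genes have at least 1. The rule uses the annotation alone and no measured value. The data are DNase-seq peaks of 3T3-L1, a mouse embryo fibroblast line that can be turned into adipocytes, labelled strain C57BL/6J, with no treatment, differentiation step or age given. The 4 libraries belong to 2 biosamples of 2 technical libraries each, and 1 list of peaks was deposited for each biosample from its pooled libraries. Biosample 1 has 298742 distinct peaks and biosample 2 has 97418, so the first list is 3.07 times as long, and the read depth behind the lists is unknown. With 1 list per biosample there is no spread between replicates and no test between groups, and the intervals given with shares are 95% Wilson intervals that cover counting error only. The start sites of the fibroblast markers carried a peak in both lists for 7 of 8 genes (all but Fap), against 0 of 4 each for epithelial, blood and mature adipocyte markers and 2 of 4 endothelial markers (Pecam1 and Cdh5).

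A start site is called open below when a peak meets the window of 1 kb on either side of it, and open in both when this holds in both lists. Each peak is a window of 150 bp with the authors' score, a whole number of at most 150. No source used here defines that score, so it serves to order peaks inside 1 list and is turned into a percentile there, and scores of the 2 lists are not set against each other. The 2 scores given for a site below are those of the strongest peak in its window in each list, and these can be separate peaks.

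The sequences that carry the strongest peaks at downstream start sites show the kinds of promoter found. The following 8 are the 150 bp of the strongest biosample 1 peak at a downstream start site, read 5′ to 3′ along the gene's strand from the mm10 sequence (GRCm38.p6). Each lies inside an intron of a longer transcript of its gene and meets no exon of GENCODE M21 or RefSeq. Capitals mark matches to the letters of 5 motifs on either strand: AP-1 (TGACTCA), TEAD (CATTCC), RUNX (TGTGGTT), ETS (CCGGAAG) and SP/KLF (GGGCGG), with CTCF searched by its consensus. The first 3 are shown as CpG-rich promoters, the next 4 as strong peaks at CpG-poor start sites, and Pparg as the central gene of adipocyte formation. No match overlaps another in these 8.
Sp2, chr11:96977796-96977945, minus strand: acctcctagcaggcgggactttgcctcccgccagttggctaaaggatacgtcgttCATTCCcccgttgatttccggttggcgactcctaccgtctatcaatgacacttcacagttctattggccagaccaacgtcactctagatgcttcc
Snd1, chr6:28480136-28480285, plus strand: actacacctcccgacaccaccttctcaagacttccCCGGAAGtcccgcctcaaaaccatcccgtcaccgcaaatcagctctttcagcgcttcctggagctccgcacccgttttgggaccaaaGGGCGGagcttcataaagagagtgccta
Dcun1d4, chr5:73490776-73490925, plus strand: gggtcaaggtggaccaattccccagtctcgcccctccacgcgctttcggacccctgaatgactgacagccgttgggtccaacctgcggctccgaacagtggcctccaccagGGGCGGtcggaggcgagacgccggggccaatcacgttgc
Smurf1, chr5:144898616-144898765, minus strand: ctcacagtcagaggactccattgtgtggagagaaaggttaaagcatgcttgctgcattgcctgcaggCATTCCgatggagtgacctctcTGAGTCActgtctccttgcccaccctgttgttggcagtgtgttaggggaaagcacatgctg
Ssc4d, chr5:135962616-135962765, minus strand: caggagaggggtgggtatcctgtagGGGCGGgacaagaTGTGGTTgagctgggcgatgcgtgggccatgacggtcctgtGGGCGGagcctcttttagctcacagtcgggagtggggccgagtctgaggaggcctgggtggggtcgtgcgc
Prkg2, chr5:98943856-98944005, minus strand: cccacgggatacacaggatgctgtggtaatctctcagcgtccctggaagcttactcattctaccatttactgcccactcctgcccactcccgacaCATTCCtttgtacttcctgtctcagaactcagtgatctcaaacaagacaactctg
Adcy7, chr8:88282776-88282925, plus strand: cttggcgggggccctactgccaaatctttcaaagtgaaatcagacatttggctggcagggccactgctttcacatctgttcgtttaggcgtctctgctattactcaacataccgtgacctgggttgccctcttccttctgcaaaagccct
Pparg, chr6:115421096-115421245, plus strand: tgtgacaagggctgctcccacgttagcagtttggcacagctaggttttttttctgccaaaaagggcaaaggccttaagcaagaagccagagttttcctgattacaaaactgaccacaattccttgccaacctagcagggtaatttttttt

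The peaks of Sp2, Snd1 and Dcun1d4 hold 9, 9 and 13 CpG dinucleotides and centre 159, 138 and 175 bp before the start site. The peak of Smurf1 holds 1 CpG, carries an AP-1 and a TEAD match, and centres 696 bp before a start site known only from a partial transcript. The Pparg peak also holds 1 CpG, matches none of the motifs searched and centres 896 bp before the start site, near the edge of the window. The peaks of Prkg2 and Adcy7 centre 98 and 142 bp before their start sites and hold 3 and 4 CpGs. The Ssc4d peak centres 419 bp before the start site. It holds 9 CpGs, as many as Sp2 and Snd1, with RUNX and SP/KLF matches, although the 1000 bp around the start site are CpG-poor.

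Downstream start sites carried peaks much less often than the most upstream start sites of the same genes, and more often than the rest of the gene body. Of the 9012 sites, 1838 were open in both lists, or 20.4% (19.6 to 21.2). At the most upstream start sites of the same 4625 genes the share was 53.3% (51.9 to 54.7). Those sites were not held to the distance of 1 kb from other genes' start sites. Among the 3524 that keep it the share was 45.7% (44.1 to 47.4), and in biosample 1 alone 58.3%. All other upstream shares and the pairs below use the sites without this filter. For comparison, 49.5% of the most upstream start sites of all protein-coding genes and 49.2% of all protein-coding start sites were open in both. Windows of the same width laid end to end through the bodies of these genes, away from any start site, were open in both lists in 6.33% of cases. These windows exist in 4257 of the genes, and long genes supply more of them. Averaged per gene over the 4257, the share was 15.6% for downstream sites and 7.56% for windows, and in biosample 1 alone 30.1% and 21.8%.

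The shares differed between the lists. In biosample 1, 35.0% (34.1 to 36.0) of downstream sites were open, against 59.8% of all most upstream sites, 60.3% of all start sites and 18.2% of gene-body windows. In biosample 2 it was 20.5% (19.7 to 21.3), against 49.6%, 49.3% and 6.47%. Nearly all downstream sites open in biosample 2 were open in biosample 1 too, with 7 exceptions. The 1320 sites open in biosample 1 alone were 14.6% of all downstream sites, and the same holds for 11.9% of gene-body windows and 11.0% of the most upstream sites. No peak in either list was found at 5847 sites, or 64.9%.

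The distance threshold of the rule made no visible step. Both lists had a peak at 25.6% of the 468 start sites 5 to 6 kb downstream. At the 684 start sites 4 to 5 kb downstream, just outside the rule, the share was 22.8%.

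**Figure D1:**
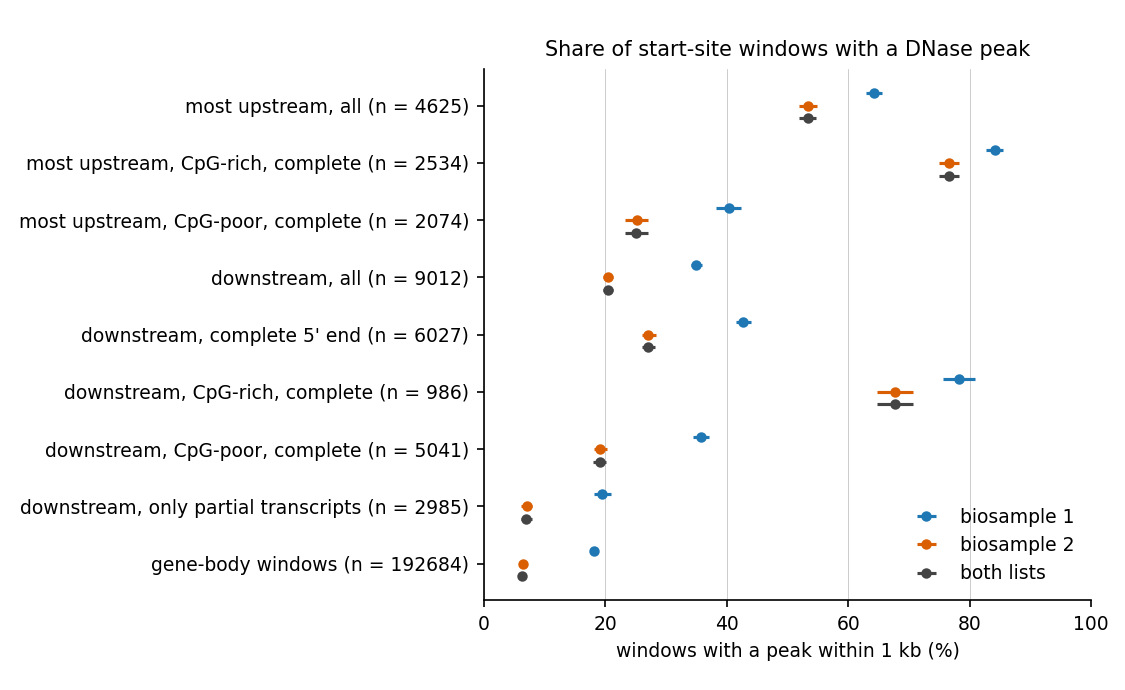
Share of start-site windows (percent, x axis) that met a peak in the list of biosample 1, of biosample 2 and in both lists, with 95% Wilson intervals as bars. Downstream sites known only from partial transcripts (6.93% in both lists) sit beside gene-body windows (6.33%), and CpG-rich downstream sites with a complete 5′ end (67.7%) sit near the CpG-rich most upstream ones (76.6%).

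Openness also differed with the kind of transcript behind a start site. GENCODE tags transcripts whose 5′ end is not known, and 2985 of the downstream sites (33.1%) rest on such partial transcripts alone, against 17 of the most upstream sites (0.368%). Sites with only partial transcripts were open in both lists in 6.93% of cases (6.08 to 7.9), which overlaps the 6.33% of gene-body windows. The 6027 sites with a complete 5′ end were open in 27.1% (26.0 to 28.2). Sites with a transcript of support level 1, the best supported class of the annotation, were open in 28.2% (26.6 to 29.8). For the sites with a complete 5′ end but no such transcript the share was 24.0% (22.6 to 25.4).

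The place of the peaks told the same groups apart. Around complete downstream start sites, peak centres were densest in the 100 bp just before the site, with 127 centres per 1000 sites in biosample 1 and 89.4 in biosample 2. In the flanks the density per 100 bp was 22.5 and 6.86, so the top bin stood 5.65 and 13.0 times above them. Around the most upstream sites the same bin held 269 and 232 centres per 1000 sites, 11.4 and 36.6 times the flanks. Around sites with only partial transcripts there was no such summit: the core held 14.2 centres per 1000 sites and 100 bp in biosample 1, against 14.9 in the flanks, and 5.47 against 4.59 in biosample 2. The start site itself lay inside a peak at 13.9% of complete downstream sites in biosample 1, at 2.08% of partial ones and at 29.7% of the most upstream ones.

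**Figure D2:**
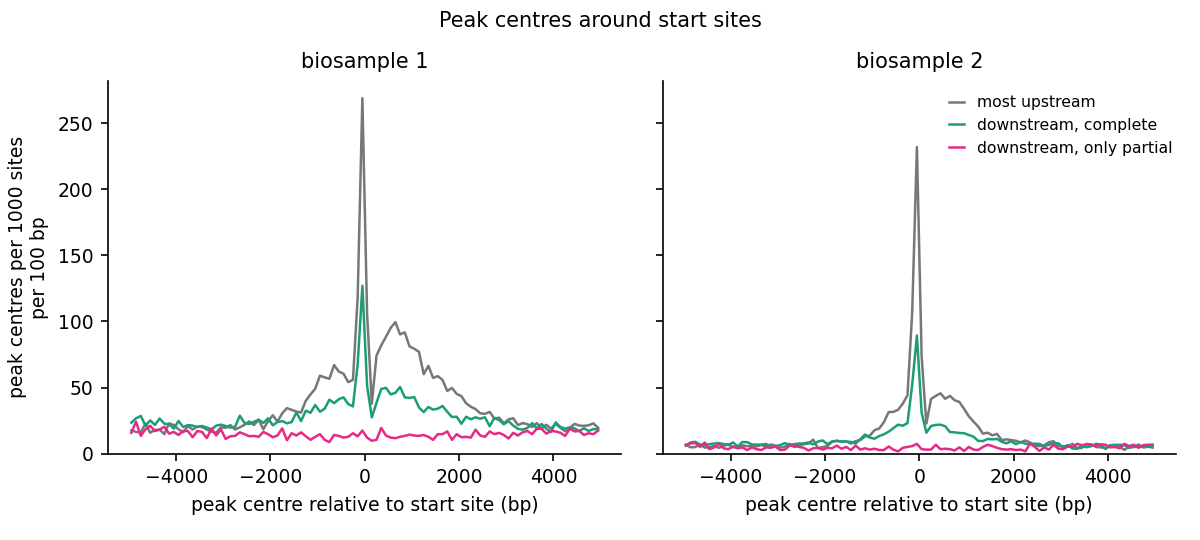
Density of peak centres (centres per 1000 start sites in bins of 100 bp, y axis) by distance from the start site along the gene's direction (bp, x axis) in each list. Complete downstream start sites show the same narrow summit just before the start as the most upstream ones at a lower height (127 against 269 per 1000 sites in biosample 1), and sites with only partial transcripts show none.

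CpG content split the downstream promoters further. A promoter is called CpG-rich here when the 1000 bp around the start site hold at least 0.6 of the CpG dinucleotides that base composition would give. Only 1029 downstream sites (11.4%) were CpG-rich, against 2541 of the most upstream sites (54.9%). CpG-rich downstream sites with a complete 5′ end were open in both lists in 67.7% of cases (64.8 to 70.6), below the 76.6% (74.9 to 78.2) of CpG-rich first promoters. CpG-poor downstream sites with a complete 5′ end were open in 19.1% of 5041 cases, and CpG-poor first promoters in 25.1% (23.3 to 27.0). Within either class downstream promoters were open less often than first promoters, by less than over all sites. These shares are not matched by gene. The first promoters include those of genes whose downstream sites all rest on partial transcripts, and were not held to the 1 kb distance. Without partial transcripts, the upstream share over both CpG classes was 44.7% in the 3066 genes that keep a downstream site. Its part in the gaps was not tested.

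Openness in both lists of CpG-rich downstream sites with a complete 5′ end was lower further from the most upstream start. It was 76.0% (70.1 to 81.0) at 5 to 10 kb, 71.9% at 10 to 20 kb, 66.2% at 20 to 50 kb, 61.2% at 50 to 100 kb and 58.3% (50.2 to 66.1) beyond 100 kb. In biosample 1 alone the order was not steady, with 88.0%, 81.6%, 72.9%, 76.2% and 70.1%. CpG-poor sites with a complete 5′ end were open in 18.9% at 5 to 10 kb and in 19.5% beyond 100 kb. CpG-poor complete sites that lie after the gene's first annotated start codon were open in 22.1% (20.5 to 23.8), and those before it in 16.1% (14.8 to 17.6). CpG-rich complete sites gave 66.7% (62.3 to 70.9) after it and 68.6% (64.5 to 72.4) before it, which overlap.

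Start sites close to each other share their windows and are not independent: for 3627 downstream sites (40.2%) the window overlapped that of another one of the same gene. Merging neighbouring sites of a gene at most 1 kb apart left 6959 promoters, of which 15.1% (14.3 to 16.0) were open in both lists. Of the merged promoters with a complete 5′ end, 20.7% (19.5 to 21.9) were open, and of those with only partial transcripts 6.35% (5.49 to 7.33). CpG-rich merged promoters were open in 58.1% (53.7 to 62.3) and CpG-poor ones in 11.8% (11.0 to 12.6). Complete promoters with 2 or more start sites were open in 35.4% (32.6 to 38.3) and those with 1 start site in 15.7% (14.5 to 17.0). Promoters annotated with several nearby starts thus carried peaks more often, and they weigh more when start sites are counted.

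Each downstream start site was then set against the most upstream start site of its gene. A most upstream site enters 1 pair for each downstream site of its gene. The pairs are therefore not independent, although the exact intervals treat them as if they were. Of the 9012 pairs, 955 had a peak in both lists at both places, 883 at the downstream site alone, 3704 at the most upstream site alone and 3470 at neither. The downstream site was the open one in 19.3% (exact 95% interval 18.1 to 20.4) of the pairs where exactly 1 of them was open, and in 30.8% (29.0 to 32.6) where both have a complete 5′ end. Over all pairs, downstream sites were open in 20.5% of those with an open first promoter and in 20.3% of the others, and with complete 5′ ends in 30.8% and 24.1%. Within each pairing of CpG classes the downstream site was open more often where the first promoter was open. The shares were 73.6% against 46.1% with both CpG-rich, 76.3% against 66.3% with a CpG-rich downstream and a CpG-poor upstream site, 14.6% against 9.99% with the classes exchanged, and 20.8% against 14.0% with both CpG-poor.

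Which of the 2 was open followed their CpG content. With a CpG-rich downstream and a CpG-poor most upstream promoter, the downstream one was the open one in 90.6% (87.2 to 93.3) of the pairs that differed, 345 against 36. With the classes the other way round it was 3.69% (3.04 to 4.42), 111 against 2901. With both CpG-rich the pairs split 65 to 57, or 53.3% (44.0 to 62.4), and with both CpG-poor 362 to 710, or 33.8% (30.9 to 36.7). Counted over merged promoters the 4 shares were 84.2%, 3.19%, 48.0% and 29.3%. Partial transcripts lie mostly under CpG-poor downstream sites. Over pairs with a complete 5′ end at both sites the 4 shares were 91.9%, 6.45%, 56.9% (47.0 to 66.3) and 40.7% (37.2 to 44.2). In biosample 1 alone these were 93.1%, 11.1%, 63.8% (53.3 to 73.5) and 45.0% (41.9 to 48.0).

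**Figure D3:**
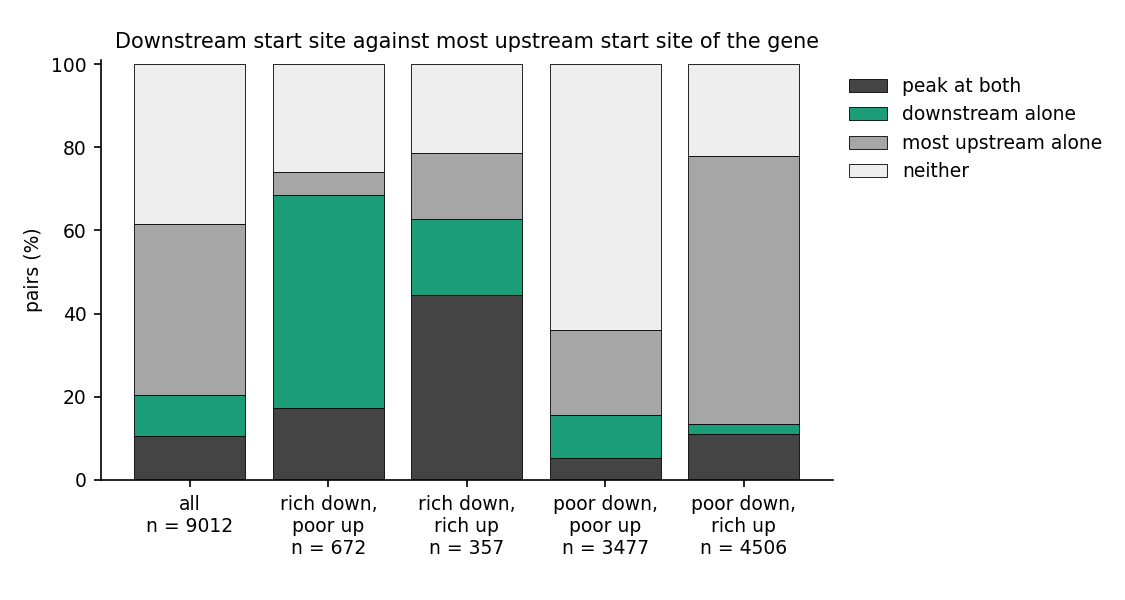
Pairs of a downstream start site and the most upstream start site of its gene by where both lists had a peak (percent of pairs, y axis), over all pairs and by the CpG class of the downstream (down) and most upstream (up) promoter. With a CpG-rich downstream and a CpG-poor upstream promoter 51.3% of pairs were open downstream alone, and with the classes exchanged 2.46% were.

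By gene, 928 of the 4625 (20.1%) had at least 1 downstream start site open in both lists. Of these, 503 (10.9% of all) also had the most upstream start site open in both lists, and 311 (6.72%) had no peak there in either. In 294 of the 928 genes (6.36% of all) none of the start sites in the first 5 kb had a peak in either list. Another 1523 genes had an open first promoter and no peak at any downstream site, and 1091 had no peak at any of these sites. The share of genes with an open downstream site rose with the number of such sites, from 10.4% of the 2761 genes with 1 to 57.1% of the 343 genes with 5 or more. Part of this rise is built in, since more sites give a gene more places to be open. Counted by site, the share open rose from 10.4% in the genes with 1 site to 31.7% in those with 5 or more. After merging neighbouring sites, 814 genes had 1 open downstream promoter, 114 had 2 or more and 19 had 3 or more.

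All peaks that met a downstream window had median percentiles of 65.0 in biosample 1 and 58.9 in biosample 2, and 17.9% and 14.1% of them were in the top decile of their list. The best peak of a window lies higher by construction, since it is the highest of 1 or more. The strongest peak at sites open in both reached a median percentile of 92.9 in the first list, with quartiles of 85.1 and 96.8, and of 76.0 in the second, with quartiles of 52.0 and 90.1. At open most upstream sites the medians were 95.5 and 84.9. At open CpG-rich downstream sites they were 94.7 and 80.9 and at CpG-poor ones 90.6 and 71.5, while open sites with only partial transcripts had 81.1 and 48.3. Of the 955 pairs open at both places, the downstream peak ranked higher in both lists in 366 (38.3%) and the upstream peak in 448 (46.9%). Where the downstream promoter was CpG-rich and the upstream one CpG-poor, the downstream peak ranked higher in 71 of 116 pairs, and the upstream peak in 31. With the classes exchanged it was 141 against 297 of 494 pairs. With both CpG-rich it was 56 against 62 of 159, and with both CpG-poor 98 against 58 of 186. In the last class the downstream peak thus ranked higher in more pairs, although the upstream site was open more often. Neighbouring sites of a gene can share a peak and enter several pairs, and these ranks were not recounted over merged promoters or genes. A few genes with many sites can therefore weigh heavily in them.

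The peaks at downstream windows numbered 4163 in biosample 1 (1.39% of the list) and 1714 in biosample 2 (1.76%). They overlapped a peak of the other list in 37.3% and 91.0% of cases, against 30.4% and 93.5% of all peaks. Hotspots, the authors' wider regions of enriched cleavage, had a median width of 1502 bp at open downstream sites in biosample 1 and 447 bp in biosample 2, against 1861 and 581 bp at open first promoters and 272 and 273 bp over the whole lists. Widths at sites are counted once per open start site, so wide hotspots can weigh more there than in the whole lists, which count each hotspot once.

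The letters under the peaks placed downstream promoters between first promoters and the gene body. Matches were counted in the 200 bp around each peak centre. All peaks that met a window of 1 kb were counted, so the downstream group can mix peaks of the start site with others of the gene body. The part of such a mixture in these shares was not tested. The SP/KLF letters, a GC box found in CpG-rich promoters, were in 17.4% (16.3 to 18.6) of biosample 1 peaks at downstream sites, in 34.8% (33.8 to 35.8) at first promoters and in 3.79% (3.62 to 3.97) in gene-body windows. The AP-1 letters, bound by Fos and Jun factors at many fibroblast enhancers, ran the other way with 13.0%, 4.81% (4.36 to 5.3) and 23.4% (23.0 to 23.8). Over all peaks of chromosomes 1 to 19 the shares were 7.57% for SP/KLF and 19.8% for AP-1 (16.2% for TEAD, 8.99% for RUNX, 1.75% for ETS and 3.85% for CTCF). Biosample 2 gave the same order, with 26.6%, 43.2% and 4.33% for SP/KLF and 14.4%, 4.42% and 30.5% for AP-1. The median GC content of these peak windows was 51.5% at downstream sites, 57.5% at first promoters and 47.0% in gene bodies in biosample 1, and its part in the motif shares was not tested.

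Splitting by CpG class kept part of this order. At CpG-rich downstream sites the AP-1 letters were in 4.22% (3.22 to 5.5) of biosample 1 peaks and the SP/KLF letters in 35.7% (33.1 to 38.5), near the 3.53% (3.11 to 4.02) and 38.3% (37.1 to 39.5) at CpG-rich first promoters. At CpG-poor downstream sites AP-1 was in 16.0% (14.8 to 17.4), above the 9.32% (8.05 to 10.8) at CpG-poor first promoters, and SP/KLF in 10.8% (9.74 to 11.9), below their 22.4% (20.5 to 24.4). The downstream group includes sites with only partial transcripts. Among CpG-poor sites with a complete 5′ end AP-1 was in 14.4% (13.0 to 15.8) of downstream and 9.33% (8.06 to 10.8) of first-promoter peaks, and SP/KLF in 12.1% (10.9 to 13.5) and 22.3% (20.5 to 24.3). Peaks at CpG-poor sites with only partial transcripts held AP-1 in 21.1% (18.3 to 24.2) and SP/KLF in 6.64% (5.06 to 8.67). The ETS letters were in 2.13% (1.68 to 2.7) of peaks at CpG-poor downstream sites and in 4.69% (3.8 to 5.77) at CpG-poor first promoters. In biosample 2 the values over all CpG-poor sites were 19.2% and 10.1% for AP-1, 17.7% and 32.3% for SP/KLF and 3.05% and 8.28% for ETS, and with a complete 5′ end AP-1 was in 17.5% and 10.1%.

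**Figure D4:**
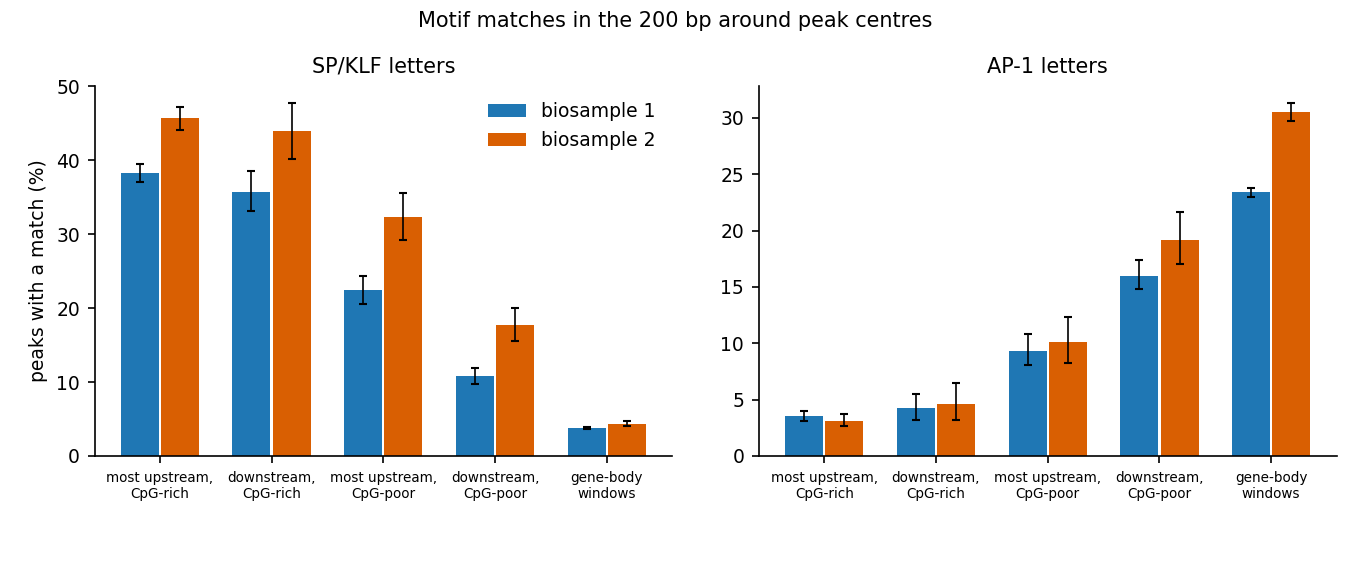
Share of peaks with the SP/KLF or the AP-1 letters in the 200 bp around their centre (percent, y axis) by place and CpG class for each list, with 95% Wilson intervals. CpG-rich downstream promoters sit beside CpG-rich first promoters, and peaks at CpG-poor downstream start sites, partial transcripts included, hold AP-1 letters more often (16.0% in biosample 1) than those at CpG-poor first promoters (9.32%).

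The AP-1 letters were found both near the start and at the rim of the window. Among peaks at complete downstream sites, 10.8% (9.18 to 12.6) of those centred within 250 bp of the start held them in biosample 1, and 11.8% (10.2 to 13.6) of those centred beyond 500 bp. In biosample 2 the shares were 11.2% (9.14 to 13.6) and 15.9% (12.8 to 19.6). At first promoters they were 3.13% (2.54 to 3.86) and 6.3% (5.57 to 7.12) in biosample 1. The SP/KLF letters were more frequent near the start, with 33.4% (30.9 to 36.0) near complete downstream starts and 8.85% (7.48 to 10.4) beyond 500 bp in biosample 1, and 41.2% and 13.6% in biosample 2. At first promoters the SP/KLF shares were 58.2% (56.3 to 60.0) and 18.2% (17.0 to 19.4) in biosample 1. Peaks at sites with only partial transcripts held the CTCF consensus in 6.52% (4.99 to 8.47) of biosample 1 cases, against 1.97% (1.56 to 2.49) at complete sites and 4.07% (3.89 to 4.26) in gene bodies. In biosample 2 it was 11.1%, 3.49% and 8.44%.

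The 10 genes with the strongest downstream peaks over both lists were Sp2, Lmna, Lrif1, Snd1, Dcun1d4, Smurf1, Ssc4d, Kat6b, Rangap1 and Kdm2a, all with scores of 147 to 149 in biosample 1. Sp2 encodes a zinc finger factor of the Sp family. Its start site 5.25 kb downstream, whose sequence opens the set above, scored 148 in biosample 1 and 117 in biosample 2, against 119 and 53 at the most upstream site. A further Sp2 start site had no peak in either list. In Lmna, which encodes the nuclear lamins A and C, all 3 downstream sites were open, the strongest at 6.65 kb with scores of 149 and 107, against 148 and 90 at the first promoter. Snd1, which encodes a nuclease-domain coactivator, scored 148 and 107 at 5.21 kb and 131 and 54 at its first promoter. Rangap1, the GTPase activator of Ran, had 4 of 4 downstream sites open, the strongest at 16.1 kb with 147 and 105, against 118 and 31 at the first promoter. Smurf1, a ubiquitin ligase of BMP and TGF-beta signalling, had its single downstream site open with 148 and 104, 67.9 kb from a first promoter with 135 and 72. In these 5 genes the downstream peak scored above the upstream one in both lists. They were picked for their strong downstream peaks, which favours this order. Over all 955 pairs open at both places the upstream peak ranked higher more often.

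In 10 genes the strong downstream peak came with no peak in either list at the most upstream start site. Dcun1d4, which takes part in cullin neddylation, had 5 of 6 downstream sites open, the strongest 10.0 kb inside the gene with scores of 149 and 102. Kat6b, a histone acetyltransferase, had 3 of 4 open, with 148 and 102 at 18.3 kb. Rbpj, the DNA-binding effector of Notch signalling, had 4 of 5 open, the strongest 124 kb from the most upstream site with 148 and 97. Srrm2, a splicing cofactor, had 3 of 4 open with 147 and 94 at 12.5 kb. These 4 genes pair a CpG-rich open downstream promoter with a CpG-poor most upstream one.

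The other 6 did not have a CpG-rich site under the strongest downstream peak. Ssc4d, a scavenger receptor family gene, had 3 of 4 sites open with 148 and 104 at 12.3 kb. B230118H07Rik had 3 of 6 open with 148 and 95. Adcy7, an adenylate cyclase, had 144 and 100 at 10.6 kb and Bicdl1, a dynein adaptor, 144 and 103 at 78.6 kb, each below a CpG-rich most upstream site without a peak. Prkg2, a cGMP-dependent kinase, had both downstream sites open with 149 and 97 at 93.5 kb, and its most upstream site rests on partial transcripts alone. Kdm2a, a histone demethylase, had 147 and 103 at 64.3 kb, but another of its start sites within 5 kb of the most upstream one was open, unlike in the other 9 genes.

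The opposite pattern was led by Agpat1, Wbp1l, Arf2, Camta1, Eaf2, Pcnx3, Lrch4, Khsrp, Mvk and Pja2, the genes with the strongest first promoters among those with no peak at any downstream site. In Pcnx3, Lrch4, Khsrp and Mvk every downstream site rests on partial transcripts alone, a class that was open about as often as gene-body windows. Their first promoters scored 149 or 150 in biosample 1 and 109 to 123 in biosample 2. Agpat1, an enzyme of phospholipid and triglyceride synthesis, scored 150 and 123 and had no peak at its downstream site 5.34 kb away. Mvk, the mevalonate kinase of cholesterol synthesis, scored 150 and 109, and its downstream site at 8.15 kb rests on partial transcripts. Camta1, a calmodulin-binding factor, had 4 downstream sites without a peak below a first promoter with 150 and 113, and the last of these sites rests on partial transcripts.

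Adipogenic and metabolic genes had open downstream promoters in 10 of the 17 genes with such a site (23 of 61 sites, or 37.7%). Beside the 928 of 4625 genes (20.1%) and 20.4% of sites over all, this list and the ones below hold genes with more downstream sites each, and genes with many such sites were more often open. Their values are a description of genes chosen for known alternative promoters. Pparg, the master regulator of adipogenesis, has a first promoter for the widely expressed isoform and, 61.1 kb downstream, the start of the adipocyte isoform. A peak met the window of the latter in both lists, with scores of 105 and 29 and its centre 896 bp before the start. Biosample 1 had further peaks of 91 and 60 in that window, at 60.9 and 61.9 kb, and biosample 2 had no further peak in it. The CpG-rich first promoter had a peak of 66 in biosample 1 and none in biosample 2. The other downstream Pparg site, at 22.7 kb, had a peak of 66 in biosample 1 alone.

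Lpin1, which encodes a phosphatidate phosphatase of fat synthesis, had no peak in either list at its most upstream site or at 6.85 kb, and all 4 sites near 21.2 kb shared a peak with scores of 125 and 42. Acaca and Acacb encode the acetyl-CoA carboxylases of fatty acid synthesis and oxidation. Acaca had 143 and 55 at 50.2 kb, above 109 and 25 at its first promoter, and Acacb had 138 and 81 at 29.4 kb with no peak at its most upstream site. Nr3c1, the glucocorticoid receptor, had 6 of 8 sites open, the strongest at 28.7 kb with 140 and 76, and no peak at its most upstream site. Pcx, pyruvate carboxylase, was strongest at its first promoter with 147 and 106, against 115 and 41 at 5.18 kb.

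The phosphodiesterases Pde4b and Pde4d, which break down cAMP from many alternative promoters, each had 3 downstream sites open and no peak at the most upstream site. The strongest lay 483 kb into Pde4b with 138 and 50, and 1030 kb into Pde4d with 124 and 55. The nuclear receptor genes Rora and Rxra had 107 and 26, and 78 and 25, at their open downstream sites, with first promoters at 107 and 35, and 116 and 23. Ppargc1a, the coactivator of mitochondrial genes, had a downstream peak of 135 in biosample 1 and none in biosample 2. Zfp423, a preadipocyte factor, and Tcf7l2, a Wnt effector, had first promoters open in both lists and downstream peaks in biosample 1 alone, with 56 and 87. Srebf1, the lipogenic regulator, had a biosample 1 peak of 78 at 10.1 kb. Esr1, Fto and Insr had no downstream peak in either list, with Fto and Insr open at the first promoter with 147 and 99, and 139 and 71. The single downstream site of Insr rests on partial transcripts.

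Cytoskeleton and adhesion genes were open downstream in 17 of 23 genes (69 of 163 sites, 42.3%), in 9 of the 17 with no peak at the most upstream site, against 311 of 928 over all genes open downstream. Plec, which encodes the cytolinker plectin from many alternative first exons, had all 11 downstream sites open in both lists, in 6 separate promoters, the largest number of any gene here. The strongest pair of scores was 143 and 99 at the site at 36.9 kb, from 2 peaks that do not overlap. The weakest was 104 and 24 at 44.5 kb, where the site rests on partial transcripts, against 119 and 50 at the first promoter. Tns1, a focal adhesion protein gene, had 4 of 9 sites open, the strongest at 161 kb with 147 and 89, against 100 and 33 at the first promoter. Cald1, the actin-binding caldesmon, had 145 and 91 at 111 kb and 144 and 95 at its first promoter, and its 4 sites near 147 and 148 kb, all from partial transcripts, had no peak. Nav1, a microtubule-associated guidance gene, had 143 and 83 at a site from partial transcripts 140.0 kb away and none at the most upstream site. Lmo7 and Pdlim5 had no downstream peak in either list and first promoters with 136 and 40, and 132 and 64. All downstream sites of Pdlim5 and part of those of Lmo7 rest on partial transcripts.

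**Figure D5:**
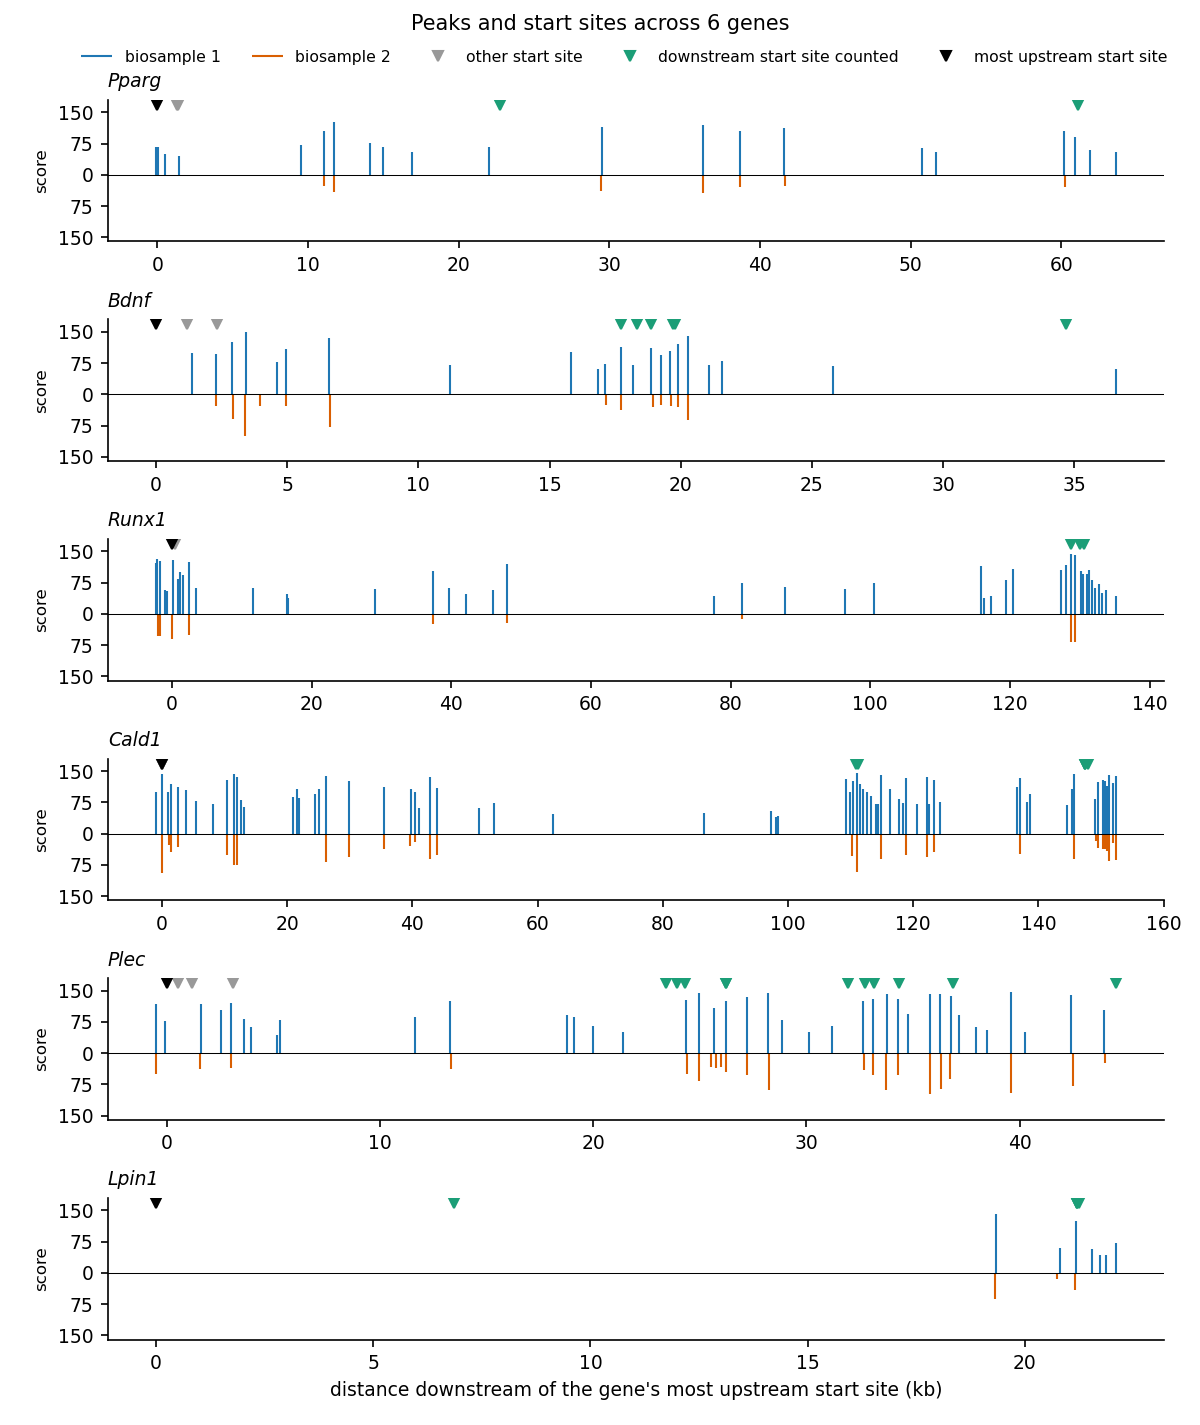
Peaks (vertical lines, with the score of biosample 1 upwards and of biosample 2 downwards, y axis) and annotated protein-coding start sites (triangles) across 6 genes, by distance downstream of the gene's most upstream start site (kb, x axis). The stretch drawn ends shortly past the last start site of each gene, and the rest of the gene is not shown. Within that stretch Lpin1 has peaks only from 19.3 to 22.1 kb, around its start sites near 21.2 kb. Plec has peaks at all 11 downstream sites, and many peaks of Cald1 and Pparg lie between start sites.

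Transcription factors of cell identity were open downstream in 9 of 24 genes (38 of 125 sites, 30.4%) and without any downstream peak in 10, against 2896 of 4625 over all. Runx1, a Runt-domain factor with a distal and a CpG-rich proximal promoter, had 145 and 67 at its downstream start 129 kb away and 129 and 59 at its most upstream one. Tcf4, an E-protein gene with 28 downstream sites, the most of any gene, had 18 open in both lists, the strongest with 136 and 66, and a first promoter of 34 and 23. Creb5, a CREB family factor, had 147 and 91 at 286 kb and no peak at its CpG-rich most upstream site. Tfap2a had 142 and 69 at 7.93 kb, and although its most upstream site had none, another start site in its first 5 kb was open. Mitf, whose promoters are used by different lineages including melanocytes, had no peak at its 4 downstream sites and 143 and 80 at its most upstream one. Nfia had no peak at its single downstream site, which rests on partial transcripts, and 143 and 85 upstream. Hnf4a, a liver factor with 3 downstream sites, and Pax6, an eye and brain factor with 7, had no peak at these or at the most upstream site.

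Matrix and growth factor signalling genes were open downstream in 7 of 17 genes (18 of 54 sites, 33.3%). Ltbp1, which encodes a protein that stores latent TGF-beta in the matrix, had 147 and 85 at 173 kb and 129 and 47 at its first promoter. Bdnf, a neurotrophin gene in which a series of 5′ exons is each spliced to 1 coding exon, had 5 of 6 downstream sites open. The strongest, at 19.7 kb, had 141 and 62, the last at 34.7 kb had no peak, and the most upstream site had none while another start in the first 5 kb was open. Fgfr1 had 5 of 7 sites open, with 136 and 52 at 5.11 kb and none at the most upstream site. Col18a1, whose short and long forms start far apart, had 132 and 49 at 77.1 kb and none at the most upstream site. Axl, Col9a1, Igf2 and Nrg1 had no downstream peak in either list. The single downstream site of Axl and part of those of Nrg1 rest on partial transcripts.

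Small GTPase and kinase regulators were open downstream in 10 of 21 genes but at only 15 of 81 sites (18.5%), close to the 20.4% over all. Rasal2, a Ras GTPase activator, led with 144 and 95 at 156 kb, near the 142 and 71 of its first promoter. Arhgef7 had 136 and 52 at 30.6 kb and no peak at a CpG-rich most upstream site, and Arhgap26 had 137 and 53 at 316 kb with none upstream. Rapgef1 had 120 and 60 at a site from partial transcripts, and a peak of 106 upstream in biosample 1 alone. Dlg1, Dock1, Magi1 and Prkca had no downstream peak. The single downstream site of Dock1 and part of those of Dlg1 and Magi1 rest on partial transcripts.

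Growth control and imprinted genes were open downstream in 3 of 10 genes (9 of 43 sites, 20.9%). Dnmt1, the maintenance DNA methyltransferase, has oocyte and somatic promoters. Its 3 downstream sites, from 6.91 to 7.28 kb, were all open, with up to 142 and 73, and its most upstream site had no peak. Gnas, the imprinted locus of the stimulatory G protein alpha subunit, had no peak at its most upstream start, a peak of 97 in biosample 1 alone at 13.5 kb, 123 and 40 at 43.4 kb and 132 and 66 at the 4 sites from 45.7 to 46.0 kb. Cdkn2a encodes p19Arf from its first promoter and p16Ink4a from its downstream one, and the scores were 124 and 47 at the first and 128 and 65 at the second, 12.5 kb away. Auts2, Fhit, Plagl1 and Trp73 had no peak at any downstream site or at the most upstream one.

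Some further genes, chosen after their values were seen, had many open sites. Smarca2, an ATPase of the BAF chromatin remodeller, had 19 of 21 downstream sites open in both lists with an open first promoter, and Rcbtb2 had 14 of 17 and Mia2 11 of 11 with none at the most upstream site. These genes are not among the 19 with 3 or more separate open downstream promoters, so many of their open sites are neighbours that share peaks. Besides Plec, Tcf4 and Tns1, 16 genes had 3 separate open downstream promoters, among them Dab2, Sgk1, Sept9 and Ablim1 with no peak at the most upstream start, and Dst, Tfeb, Rreb1 and Synj2 with that start open.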

How the data were processed

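DNase-seq measures where DNase I cuts chromatin. The authors deposited, per the labels and sample notes, 1 list of peaks and 1 list of hotspots on mm10 for each of 2 biosamples, made from the pooled alignment of 2 technical libraries. The aligner and the caller of peaks are not given in the sources used here, and the depth is unknown. The deposited peaks carry the authors' score, which was ranked within its list. The deposited hotspots carry the authors' −log10 q value, which was not used, only the intervals. Repeated intervals (51 and 12) were counted once. No source says that the biosamples were separate cultures.

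Start sites came from GENCODE M21 on GRCm38.p6, and a window of 1000 bp on either side was searched for peaks. Partial transcripts are those tagged with an unknown 5′ start. CpG content was the observed over expected ratio in 1000 bp, with a threshold of 0.6. Neighbouring sites at most 1000 bp apart were merged for the counts of promoters. Gene-body windows started 5000 bp from the most upstream site and avoided all start sites. Shares have Wilson intervals, and paired shares exact binomial ones, at the 95% level.

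The genes named are the 10 with the highest mean percentile of the best downstream peak over both lists, the 10 so ranked without a peak at the most upstream site, and the 10 with the strongest most upstream site and no downstream peak. From each gene list they are the 4 highest and up to 4 in alphabetical order without a downstream peak, with every adipogenic gene added. The members and lists were chosen with earlier results of these data known. The counting was checked on simulated data. Python 3.11.15 was used with pandas 2.3.3, numpy 2.4.6, scipy 1.17.1, pysam 0.24.0 and matplotlib 3.10.9. Other windows, distances, transcript sets, score thresholds, hotspots and single lists were tried. The first 5 kb as a region, merging in the splits by support and CpG class, single lists in the split by support, and the place of peaks and the transcript support in the motif counts were added after seeing the data.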

Additional observations from a re-analysis of the deposited data

How the results depend on the processing

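The downstream share was below the share at the most upstream sites in all 15 alternatives, and the paired share reversed in none, but the sizes moved. The downstream share of 20.4% became 17.0% with a window of 500 bp, 26.4% with 2000 bp, 27.1% without partial transcripts, 23.8% with support level 1 transcripts, 15.0% with all transcript types, 21.6% with only protein-coding genes as neighbours, 15.1% over merged promoters, 13.9% at the most downstream site of each gene, 15.8% with the stronger 50% of each list and 19% with the first list shortened. The upstream share of 53.3% became 49.5%, 57.6%, 44.7%, 50.2% and 61.2% under the first 5 of these, 55.4% for genes with a site over 10 kb downstream and 47.0% with the stronger 50%. The downstream share of pairs that differed, 19.3%, became 20.9% with 2000 bp, 30.8% without partial transcripts, 25.6% with support level 1, 11.1% with all types, 18.1% over 10 kb, 13.3% merged, 12.3% at the most downstream site and 18% with the first 5 kb as a region. Gene-body windows went from 6.33% to 3.03% with the stronger 50%, 5.04% with the shortened list and 6.75% with hotspots. Openness of CpG-rich sites went from 66.6% to 60.9% with support level 1, that of CpG-poor sites from 14.4% to 19.1% without partial transcripts and 18.3% with support level 1, and the share of CpG-rich sites from 11.4% to 16.3% and 12.9%. The median percentile in biosample 1 went from 92.9 to 93.8 without partial transcripts. Complete sites went from 27.1% to 20.7% when merged. With 1 list alone, leaving out the other biosample, the ranges were 20.5% to 35.0% downstream, 53.4% to 64.3% upstream, 19.3% to 23.6% of pairs, 6.47% to 18.2% in gene bodies, 66.6% to 76.9% of CpG-rich and 14.5% to 29.7% of CpG-poor sites, 27.1% to 42.7% of complete and 7.04% to 19.5% of partial sites, and 56 to 83 genes of the lists. The higher values are those of biosample 1, whose list is 3.07 times as long, and the cause of the other changes was not tested. The pairs above are start sites of the same gene. No pairing of libraries or treatments was possible, because each list pools the technical libraries of 1 biosample and no treatment is compared.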
